A study of Mus musculus with 3 samples.

Results

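Aire and 8 genes whose protein products work with it in the nucleus were followed through 3 microarray libraries of mature medullary thymic epithelial cells (mTECs), the stromal cells that show peripheral tissue antigens to developing T cells. The genes were Aire, Prkdc, Parp1, Top1, Top2a, Cdk9, Ccnt1, Hipk2 and Jmjd6, found by symbol among 19937 genes with a probe set annotated to that gene alone. Top2a alone had more than 1 such probe set, and its brightest by mean log2 value was kept. All 9 were measured, meaning that their highest value reached 6.81, the median of all log2 intensities, as it did for 12556 genes in all.

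Each genotype is 1 library from cells sorted as EpCAM+, CD45-, Ly51low and MHC-II high, typically pooled from 3 mice, on the C57b/6 strain and at 6 weeks of age. The WT library came from Sirt1fl/fl mice, so the reference carries the floxed Sirt1 alleles without Cre. The Sirt1cKO library came from Sirt1fl/fl Foxn1-Cre mice, in which Cre follows a promoter active throughout thymic epithelium, cortex and medulla alike. The AireKO library came from Aire-/- mice, for which the labels name no floxed allele. With 1 library for each genotype there is no replicate spread and no test, and every value below describes these libraries. The free-text descriptions of both knockout libraries contradict their titles and genotype fields, each naming the other knockout. AireKO and Sirt1cKO are therefore used as names of titled libraries, and each direction given depends on the titles.

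Aire is a chromatin-associated regulator that lets mTECs transcribe a wide range of genes otherwise restricted to other tissues, and its loss causes autoimmunity. It does not act as a classical sequence-specific factor. It joins complexes that handle DNA breaks and supercoiling, among them DNA-dependent protein kinase, PARP1 and topoisomerases. It also recruits P-TEFb, the kinase of CDK9 and cyclin T1 that releases paused RNA polymerase II. HIPK2 is a kinase that phosphorylates Aire, JMJD6 is a dioxygenase linked to splicing, and SIRT1 is a deacetylase that acts on Aire. These are protein relations, while the arrays measured RNA only.

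Aire, Top2a and Ccnt1 were the members with the widest spread between libraries, and the 250 bases before their RefSeq start sites (GRCm38.p6, all on the minus strand) are shown for that reason. RefSeq promoter windows were matched for 8 of the 9 members. The Aire window is chr10:78043611-78043860, the Top2a window chr11:99024190-99024439 and the Ccnt1 window chr15:98567737-98567986. Capitals mark, on either strand, the CCAAT box (CCAAT), the GC box (GGGCGG) and the TATA box (TATAAA), and an NF-kB motif was also searched.
Aire: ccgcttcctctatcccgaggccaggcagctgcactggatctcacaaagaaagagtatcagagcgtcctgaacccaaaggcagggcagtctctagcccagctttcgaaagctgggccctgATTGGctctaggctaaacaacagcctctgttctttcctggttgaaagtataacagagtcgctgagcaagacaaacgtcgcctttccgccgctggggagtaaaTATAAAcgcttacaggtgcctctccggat
Top2a: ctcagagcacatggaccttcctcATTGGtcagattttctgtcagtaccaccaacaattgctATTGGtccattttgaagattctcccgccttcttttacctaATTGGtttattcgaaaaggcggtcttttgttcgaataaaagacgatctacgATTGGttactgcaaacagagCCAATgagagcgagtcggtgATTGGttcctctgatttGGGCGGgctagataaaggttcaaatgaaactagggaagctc
Ccnt1: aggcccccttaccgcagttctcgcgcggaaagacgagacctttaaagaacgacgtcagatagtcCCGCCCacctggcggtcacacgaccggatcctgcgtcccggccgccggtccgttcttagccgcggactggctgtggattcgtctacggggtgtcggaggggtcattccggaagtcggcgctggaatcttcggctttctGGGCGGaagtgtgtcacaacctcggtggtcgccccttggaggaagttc

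The Aire window holds 1 TATA box starting at -29 and 1 CCAAT box starting at -131, counting -1 as the base before the start site. A TATA box occurs in 12.4% of the 32851 RefSeq windows of this length, and Aire was the only matched member with one. The Top2a window holds 6 CCAAT boxes and 1 GC box. At least 1 CCAAT box occurs in 33.8% of all windows and 6 or more in 0.0578%. The Ccnt1 window holds 2 GC boxes, a motif found in 32.7% of windows, and no CCAAT box. The NF-kB motif, present in 7.25% of windows, was not found in any window of the matched members. These are letter matches in short windows and say nothing about binding.

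The libraries differed in ways that touch every value. The 95th percentile of 1027 olfactory receptor genes, taken as background, lay at log2 6.02 in WT, 6.89 in AireKO and 6.34 in Sirt1cKO, so dim genes were resolved least in AireKO. Every member stood above it in every library, by at least 0.49. Over all measured genes the median difference from WT was -0.19 in AireKO and -0.07 in Sirt1cKO. Median centring moved all differences by 0.27 and 0.10, which left median differences of 0.08 and 0.03, above 0. Sex-linked genes also separated the libraries, with Xist at 12.17 in WT, within background in AireKO and at 11.46 in Sirt1cKO. The Y-linked Eif2s3y was within background in WT and stood at 9.75 in AireKO and 8.92 in Sirt1cKO, so the Sirt1cKO library gave both signals. H2-Ea, an MHC class II gene normally silent on this strain, reached 13.23 in AireKO and was within background in WT and Sirt1cKO. Genotype cannot be told apart from these differences. Markers of mature mTECs were all above background, and Epcam, the gate's epithelial marker, stood between 10.49 and 11.01. Of 10 thymocyte markers on the array, Cd3d, Rag2, Ptcra and Dntt were within background everywhere. The 6 measured ones had a median difference of 0.34 in AireKO and 0.37 in Sirt1cKO. They ranged from Cd4, at -0.18 and -0.30, to Cd8b1, at 0.77 and 0.84. Cd3e differed by -0.04 and 0.28, and Rag1 was within background in AireKO. The list's intensities summed to 1307, 1640 and 1664 in the order WT, AireKO, Sirt1cKO. Other lists also held both dim and bright genes. Cd79a was within background in all 3 libraries while Cd79b, also of B cells, stood at 9.49 in WT. The endothelial gene Kdr was within background while Tek stood at 7.71 in WT and 8.35 in Sirt1cKO. Clec9a of dendritic cells was within background while the myeloid gene Lyz2 stood at 12.06, 10.76 and 11.26 in the order above. The sum of the list of dendritic cells and macrophages, 5988, 3553 and 4149, followed Lyz2. Of its 7 measured genes, 3 were at least 1.5-fold lower in AireKO, beside 23.6% of all measured genes. There 1, Cd68, was higher by that fold, at 0.67, beside 8.52%. The list medians were -0.44 in AireKO and -0.54 in Sirt1cKO. Among fibroblast genes Pdgfra was within background, and the sum of 1907, 4691 and 2562 followed Dcn, at 10.08, 11.98 and 10.87, while Pdgfrb differed by -1.02 in AireKO. Cortical epithelial genes summed to 12812, 12543 and 12640, but 3 of the 6 measured were at least 2-fold lower in AireKO, namely Ctsl, Prss16 and Dll4 at -1.54, -1.11 and -1.03, beside 8.46% of all measured genes. The part of these lists in the members' values was not tested.

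No member differed by 2-fold or more in either knockout. The shares of all measured genes past 2-fold were 8.46% downward and 2.68% upward in AireKO, and 1.68% and 0.804% in Sirt1cKO. A count of 0 of 9 does not set the members apart from shares of this size. After median centring the split of all measured genes was 4.36% lower and 5.62% higher in AireKO, and 1.18% and 1.11% in Sirt1cKO. At 1.5-fold, 2 members (Top2a and Ccnt1) were lower in AireKO, beside 23.6% of all measured genes. 1 member, Aire, was lower at 1.5-fold in Sirt1cKO, beside 8.27%. None was higher at 1.5-fold, beside 8.52% and 4.01%. The spread of a gene over its 3 libraries had a median of 0.28 over the members and 0.47 over measured genes.

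**Figure D1:**
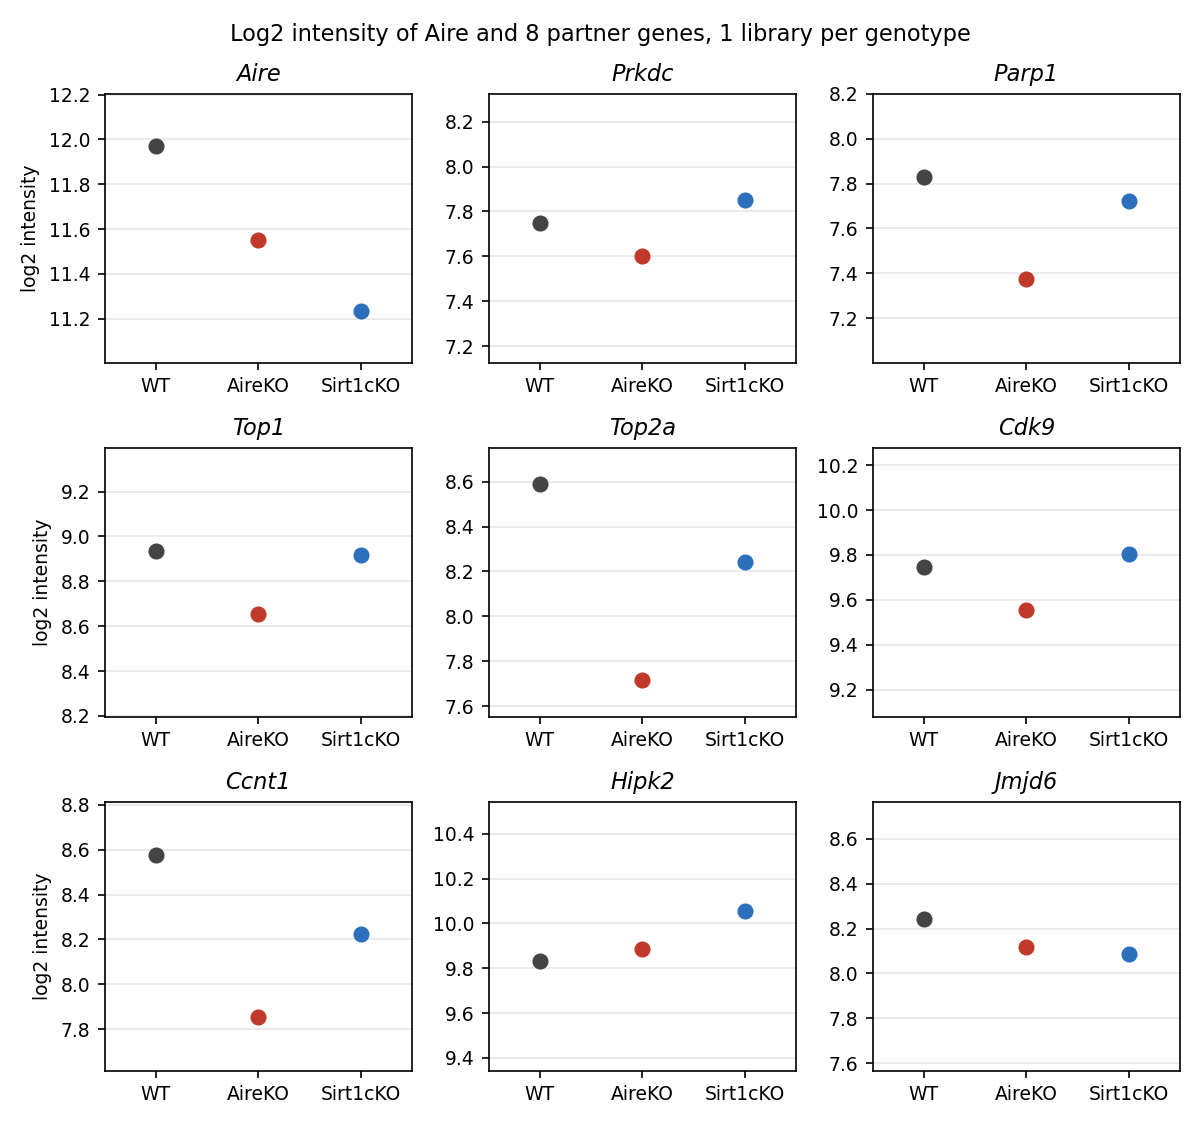
Log2 intensity (y axis) of each of the 9 genes in the WT, AireKO and Sirt1cKO libraries (x axis), 1 point per library and a y range of the same length in every panel. Top2a, Aire and Ccnt1 cover 0.87, 0.74 and 0.73 log2 units between their highest and lowest library, and Jmjd6 covers 0.16.

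Aire itself was bright in all 3 libraries. Its log2 intensity reached 11.97 in WT, 11.55 in AireKO and 11.24 in Sirt1cKO, or 4018, 2999 and 2414 on the linear scale. WT was thus highest and the library labelled Sirt1cKO lowest. AireKO was 1.34-fold below WT and Sirt1cKO 1.66-fold below it. Of measured genes, 33.1% had a lower AireKO difference than the -0.42 of Aire, and 4.68% had a lower Sirt1cKO difference than its -0.74. Aire and Jmjd6 were the members with their lowest value in Sirt1cKO, where Aire differed from AireKO by -0.31 and Jmjd6 by -0.03. Under quantile normalization, loess, median centring and a shift of the median difference to 0, the Sirt1cKO difference lay between -0.71 and -0.64, while the AireKO difference ranged from -0.32 to -0.15. A knockout allele can still give transcript that a whole-transcript probe set detects, so the level of Aire does not check the AireKO label. Sirt1, the gene deleted in Sirt1cKO, stood at 11.40 in WT, 11.42 in AireKO and 11.27 in Sirt1cKO. How much of its probe set lies in the floxed part was not checked.

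The mature mTEC markers, in whose company Aire is normally expressed, were mostly lower than in WT too. Their median difference was -0.61 in AireKO and -0.33 in Sirt1cKO, against -0.19 and -0.07 over all measured genes. In AireKO 7 of 14 were at least 1.5-fold lower and 2 higher, beside 23.6% and 8.52%. In Sirt1cKO 2 were lower and 0 higher by that fold, beside 8.27% and 4.01%. Over 14 genes their intensities summed to 71595, 51275 and 57652 in the order WT, AireKO, Sirt1cKO, and 3 of 14 were at least 2-fold lower in AireKO and 0 in Sirt1cKO, beside 8.46% and 1.68% of all measured genes. The tight-junction genes Cldn4 and Cldn3 differed by -1.23 and -1.16 in AireKO and the basal keratin gene Krt5 by -1.09. The MHC class II gene H2-Ab1 and the keratin gene Krt8 differed there by -0.94 and -0.89. The costimulatory genes Cd80 and Cd86 differed the other way there, by 0.76 and 0.70, and the invariant chain gene Cd74 by -0.07. Fezf2, the other main transcription factor of antigen expression in mTECs, stood at 11.97, 11.96 and 11.89. The part of these markers in the Aire values was not tested. In sorted bulk cells, fewer Aire-positive cells and less Aire RNA in each cell cannot be told apart.

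Genes reported to act upstream of Aire were described by a list of 13, of which 12 were measured. In AireKO 1 of 12 was lower by 2-fold or more and 0 higher, beside 8.46% and 2.68% of all measured genes. The median difference there was -0.32, and 4 of 12 were at least 1.5-fold lower, beside 23.6%. In Sirt1cKO 0 passed 2-fold, beside 1.68% lower and 0.804% higher. There 3 of 12 were at least 1.5-fold lower, beside 8.27%, and the median was -0.27. Relb, the NF-kB subunit required for mTEC development, stood at 9.19 in WT, 8.19 in AireKO and 8.53 in Sirt1cKO. It was 2.01-fold lower in AireKO, and its difference there came to -0.73 after median centring, short of 2-fold. Nfkb2, which encodes the RelB partner p100, differed by -0.87 and -0.60 in the same order of knockouts. The receptor gene Cd40 differed by -0.80 and -0.56. Irf4, a lymphoid and mTEC transcription factor, differed by -0.32 and -0.65. Its order of libraries, WT above AireKO above Sirt1cKO, was that of Aire, and Tnfrsf11a, Map3k14 and Fezf2 on this list shared it as reported. How many measured genes have this order was not counted, and 20.1% had their lowest value in Sirt1cKO. Map3k14 differed by -0.29 and -0.30 and Fezf2 by -0.01 and -0.08, so their order rests on small gaps. Median centring moved AireKO differences by 0.27, more than those of Fezf2 and Tnfrsf11a, which then lie above WT. The RANK receptor gene Tnfrsf11a, through which RANK ligand induces Aire, differed by -0.21 and -0.29. Irf8, by contrast, stood at 0.52 in AireKO and -0.14 in Sirt1cKO, and Ltbr, within background in AireKO, was at least 1.61-fold lower there.

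The chromosomal neighbours of Aire were examined because its own level differed in both knockouts. Of the 5 nearest measured genes on each side, 0 were lower and 1 was higher by 2-fold or more in AireKO. The shares of all measured genes were 8.46% and 2.68% as reported, and 4.36% and 5.62% after median centring. The higher gene, Krtap10-4, differed by 1.14 and is named after its value was seen. It is a keratin-associated protein gene with close paralogs at the locus whose probes may be shared. The immediate neighbour Dnmt3l, a cofactor of DNA methyltransferases, stood at 8.01 in WT, 8.92 in AireKO and 7.71 in Sirt1cKO. Its AireKO difference of 0.91 ranged up to 1.18 under the other scalings, where it passed 2-fold. Pfkl, the liver phosphofructokinase gene on the other side, stood at 8.73, 8.33 and 8.39. Over the 10 neighbours the median difference was 0.10 in AireKO and -0.26 in Sirt1cKO.

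The profiles most like that of Aire were those of Ubxn2a, Ociad1, Txndc17, Fbxo21 and Alpi. Likeness was the Euclidean distance of mean-centred log2 values over the 3 libraries, and these 5 lay within 0.0313 of Aire. Ubxn2a, the nearest, stood at 9.41 in WT, 8.97 in AireKO and 8.67 in Sirt1cKO. With 3 libraries such a match rests on few values. Of 12556 measured genes, 41 lay within 0.1 of Aire, and this count was not made for other genes.

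The DNA break and supercoiling partners Prkdc, Parp1, Top1 and Top2a all had their lowest value in AireKO as reported, and Sirt1cKO stayed above AireKO for each under every scaling. Prkdc, the catalytic subunit of DNA-dependent protein kinase that joins broken ends, stood at 7.75 in WT, 7.60 in AireKO and 7.85 in Sirt1cKO. Its AireKO difference of -0.14 turned to 0.13 after median centring and 0.04 with the median difference at 0, and its Sirt1cKO difference was 0.10. Parp1, the polymerase that marks DNA breaks with ADP-ribose chains, stood at 7.83, 7.37 and 7.72 in the order WT, AireKO, Sirt1cKO. AireKO was lowest, 1.37-fold below WT, and 31.1% of measured genes had a lower difference. Under the other scalings the AireKO difference of Parp1 ranged from -0.40 to -0.18, and it was the member nearest to background there, 0.49 above it.

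Top1, which relaxes supercoils through single-strand nicks, stood at 8.94 in WT, 8.66 in AireKO and 8.92 in Sirt1cKO. Its AireKO difference was -0.28 and came to -0.01 after median centring. Its Sirt1cKO difference was -0.02 and turned positive under all 4 other scalings, at most to 0.08.

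Top2a, the topoisomerase of dividing cells that passes a duplex through a double-strand break, had the widest spread of the 9. It stood at 8.59 in WT, 7.72 in AireKO and 8.24 in Sirt1cKO, or 385.1, 210.2 and 302.5 on the linear scale. Its AireKO value lay 0.83 above background, against 2.57 in WT. WT was highest and AireKO lowest, 1.83-fold below WT, and 11.7% of measured genes had a lower AireKO difference than its -0.87. That difference ranged from -0.87 to -0.60 over the scalings and stayed at or past 1.5-fold under each. With the mean of both single-gene probe sets, of which the second was within background in all 3 libraries, it was -0.57. In Sirt1cKO the difference was -0.35, with 20.9% of measured genes lower.

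Other genes of dividing cells lay on both sides of WT in AireKO, none as far below it as Top2a. Of 14 on the array, 13 were measured, 0 of them was at least 1.5-fold lower in AireKO or in Sirt1cKO, and 1 and 3 were at least 1.5-fold higher in the same order. Over all measured genes 23.6% and 8.27% were lower and 8.52% and 4.01% higher by that fold. Their intensities summed to 5614, 5685 and 7252 in the order WT, AireKO, Sirt1cKO. Their part in the Top2a values was not tested. Mki67, the standard proliferation marker, stood at 9.17, 9.10 and 9.66. Cdk1, the mitotic kinase, stood at 9.91, 9.82 and 10.11. The spindle gene Nusap1 differed by 0.84 in AireKO and 0.74 in Sirt1cKO. Plk1 and Ccna2, the lowest of the list in AireKO, differed by -0.41 and -0.28 there, and by 0.10 and 0.32 in Sirt1cKO. The median of the list was 0.02 in AireKO and 0.35 in Sirt1cKO, against -0.87 and -0.35 for Top2a.

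Around these partners, 0 of 5 measured end-joining genes passed 2-fold or 1.5-fold in either knockout. At 1.5-fold the shares of all measured genes were 23.6% lower and 8.52% higher in AireKO, and 8.27% and 4.01% in Sirt1cKO. Xrcc5, the Ku80 subunit that brings in the kinase, stood at 7.20 in WT and 7.15 in Sirt1cKO and was within background in AireKO. Of 11 break-sensing and single-strand repair genes, 0 passed 2-fold. At 2-fold the shares of all measured genes were 8.46% lower and 2.68% higher in AireKO, and 1.68% and 0.804% in Sirt1cKO. Parp2, the close relative of Parp1, differed by 0.90 in AireKO and 0.58 in Sirt1cKO, opposite in sign to Parp1, and its AireKO difference passed 2-fold under the other scalings. Rad50, of the break-tethering complex, differed by 0.72 and -0.24, and the ligase gene Lig3 by -0.67 and -0.10. Among 5 measured topoisomerase genes Top2b, the isoform of non-dividing cells, stood at 7.97 in WT, 8.11 in AireKO and 7.94 in Sirt1cKO. Its AireKO difference of 0.14 was thus opposite in sign to that of Top2a.

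**Figure D2:**
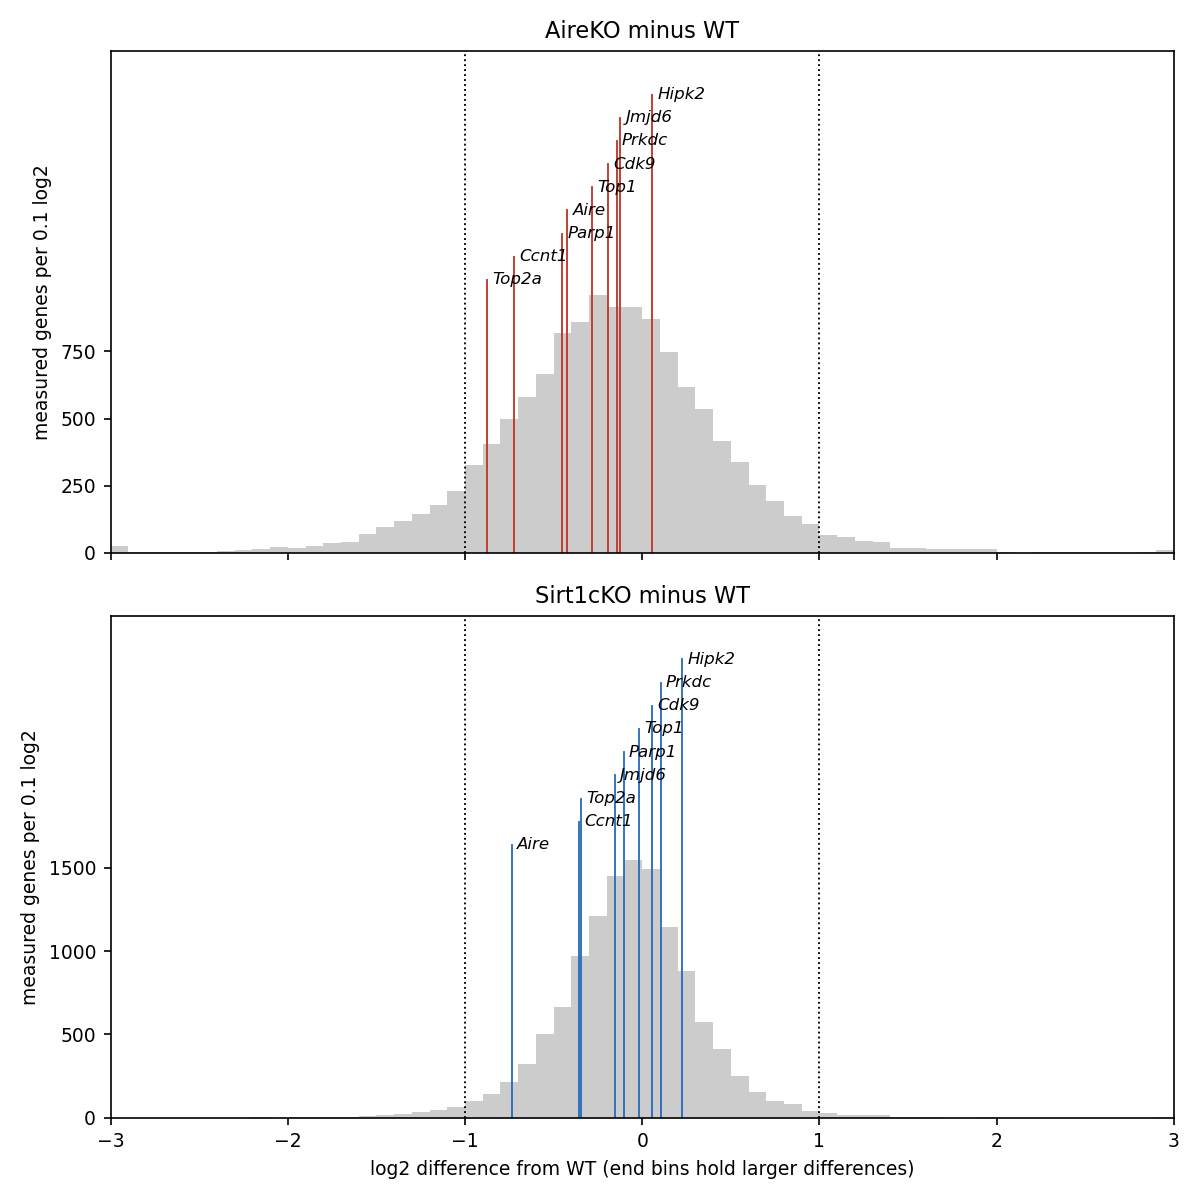
Number of measured genes (y axis) in each 0.1-wide bin of log2 difference from WT (x axis) for AireKO above and Sirt1cKO below, with a labelled vertical line at the difference of each of the 9 genes and dotted lines at 2-fold. All 9 lie inside the dotted lines, with Top2a at -0.87 lowest in AireKO and Aire at -0.74 lowest in Sirt1cKO.

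The P-TEFb subunits differed from each other. Cdk9, the kinase, stood at 9.75 in WT, 9.56 in AireKO and 9.80 in Sirt1cKO. Its AireKO difference of -0.19 turned positive after quantile normalization, loess and median centring, at most to 0.08. Ccnt1, its cyclin, stood at 8.58, 7.85 and 8.22 in the order WT, AireKO, Sirt1cKO. AireKO was lowest and 1.65-fold below WT, and 17.1% of measured genes had a lower difference than its -0.73. The direction held under every scaling, but the size dropped below 1.5-fold under all 4, to between -0.58 and -0.46. In Sirt1cKO Ccnt1 differed by -0.35. Its AireKO value lay 0.97 above background, against 2.56 in WT. Ccnt2, the alternative cyclin, stood at 9.56, 9.24 and 9.57.

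The proteins that hold P-TEFb inactive in the 7SK ribonucleoprotein gave both low and high values. Of 7 measured genes on the list of P-TEFb and its regulators, 2 were at least 2-fold lower and 0 higher in AireKO, and 0 passed 2-fold in Sirt1cKO. The shares of all measured genes were 8.46% and 2.68% in AireKO, and 1.68% and 0.804% in Sirt1cKO. The list medians were -0.32 and 0.01. Mepce, which caps the 7SK RNA, stood at 8.02 in WT and 7.45 in Sirt1cKO and was within background in AireKO, at least 2.19-fold lower, with a measured difference of -0.89 after median centring. Hexim1, the inhibitor subunit, stood at 8.42, 7.40 and 7.79 in the order WT, AireKO, Sirt1cKO. Its AireKO difference of -1.02 became -0.75 after median centring. Larp7, the 7SK-binding scaffold, differed by 0.61 in AireKO and 0.47 in Sirt1cKO, and Hexim2 by 0.40 in both.

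Of 15 measured pausing and elongation genes, 0 were at least 2-fold lower and 1 was higher in AireKO, and 0 passed in Sirt1cKO. Shares of all measured genes were 8.46% lower and 2.68% higher in AireKO, and 1.68% and 0.804% in Sirt1cKO. The higher gene was Ell2, a super elongation complex factor, at 9.68 in WT, 10.72 in AireKO and 10.02 in Sirt1cKO. Supt6, a histone chaperone of elongating polymerase, differed by -0.78 and -0.26. Polr2a, the large subunit of RNA polymerase II, stood at 9.94, 9.33 and 10.13. Cdk12, an elongation kinase, differed by -0.66 in AireKO and 0.03 in Sirt1cKO. The list median was -0.20 in AireKO, close to the -0.19 of all measured genes, and 0.09 in Sirt1cKO.

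Hipk2 was the 1 member above WT in both knockouts as reported. Prkdc and Cdk9 joined it after median centring, and Prkdc alone with the median difference at 0. Hipk2 stood at 9.83 in WT, 9.89 in AireKO and 10.06 in Sirt1cKO. Its differences of 0.06 and 0.23 were positive under every scaling and reached 0.33 and 0.32 at most. Of its relatives, Hipk3 differed by -0.47 in AireKO and -0.54 in Sirt1cKO. Hipk1 differed by -0.42 and 0.12, and Hipk4 was within background everywhere.

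Jmjd6 had the narrowest spread of the members. It stood at 8.24 in WT, 8.12 in AireKO and 8.09 in Sirt1cKO. Its AireKO difference of -0.12 turned positive under all 4 other scalings, at most to 0.15, and the Sirt1cKO difference of -0.16 stayed negative. Of the 9 measured genes on the list of Jmjd6 and splicing partners, 1 was at least 2-fold lower in AireKO and 0 in Sirt1cKO. Shares of all measured genes lower by that fold were 8.46% and 1.68%. The lower gene, the splicing factor Srsf1, stood at 9.15 in WT, 7.87 in AireKO and 8.38 in Sirt1cKO. It was at least 2-fold lower in AireKO under every scaling. The related Srsf2 differed by -0.80 and -0.36. U2af2, a splice-site recognition factor and known substrate of JMJD6, differed by -0.12 and 0.22.

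**Figure D3:**
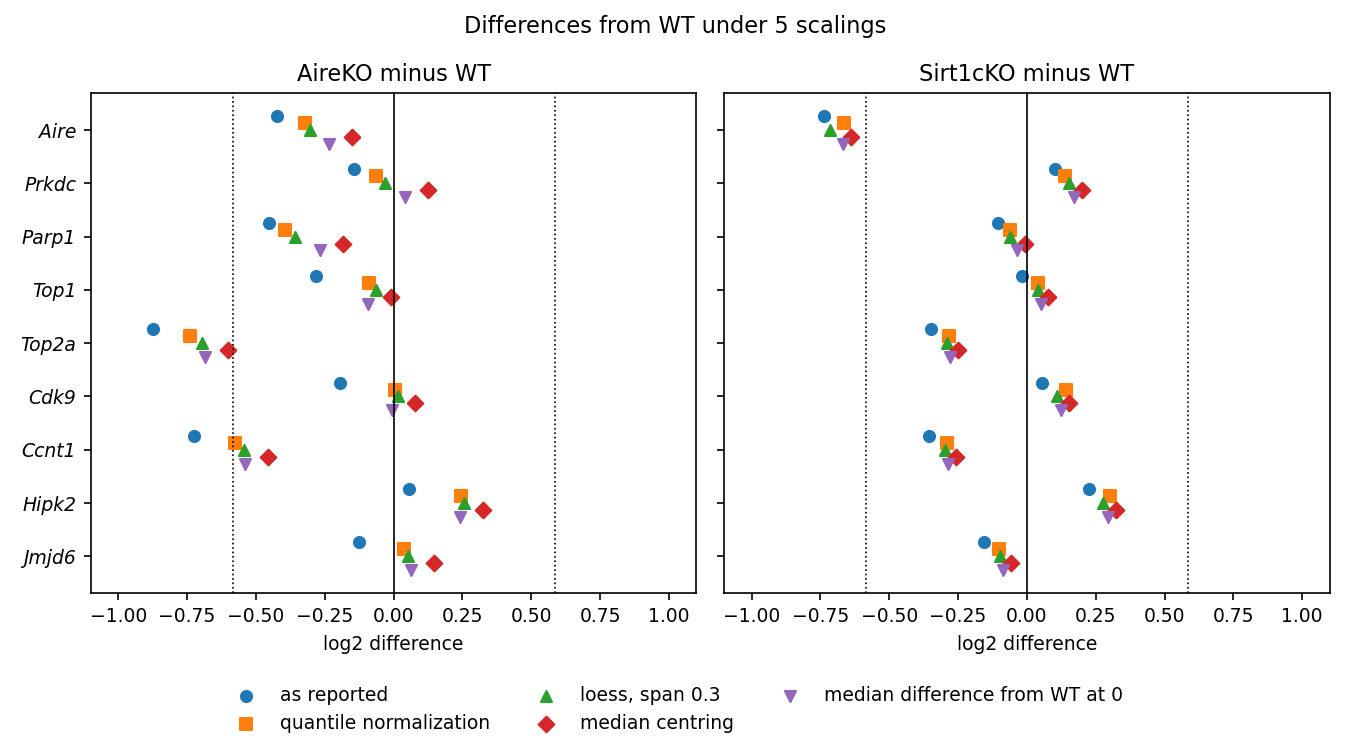
Log2 difference from WT (x axis) of each of the 9 genes (y axis) in AireKO, left, and Sirt1cKO, right, as reported and under 4 other scalings (symbols), with dotted lines at 1.5-fold. Top2a in AireKO and Aire in Sirt1cKO lie past 1.5-fold under all 5, while Prkdc, Cdk9 and Jmjd6 lie on both sides of 0 in AireKO.

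Relatives of Aire that share its SAND domain were mixed in AireKO. Of 6 measured family genes including Aire, 0 passed 2-fold as reported. Over all measured genes 8.46% were lower and 2.68% higher in AireKO, and 1.68% and 0.804% in Sirt1cKO. Sp100 and Sp140, nuclear body genes that respond to interferon, differed by 0.99 and 0.96 in AireKO and 0.41 and 0.01 in Sirt1cKO. Both passed 2-fold in AireKO under the other scalings. Deaf1, a transcription factor that also controls tissue antigens outside the thymus, stood at 7.80 in WT, 7.01 in AireKO and 7.68 in Sirt1cKO.

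A longer list of other reported Aire-binding proteins had 23 measured genes, of which 1 was at least 2-fold lower in AireKO, 0 were higher, and 0 passed in Sirt1cKO. Over all measured genes 8.46% were lower and 2.68% higher in AireKO, and 1.68% and 0.804% in Sirt1cKO. The list medians were -0.33 and -0.10. The gene that passed was Hnrnpl, a splicing regulator, at 10.05 in WT and 9.59 in Sirt1cKO, and its AireKO difference of -1.06 became -0.78 after median centring. The chromatin remodeller gene Chd4 differed by -0.85 in AireKO and -0.36 in Sirt1cKO, and the methyl-CpG binding gene Mbd1 by -0.85 and -0.10. Mbd1 in Sirt1cKO came to 0.00 after median centring. The corepressor gene Trim28 differed by -0.81 and -0.48, and Pias1, a SUMO ligase gene, by 0.65 and 0.55.

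Over all 10 lists without the 9 members, 86 genes were measured. Past 2-fold in AireKO, 5 were lower, namely Hexim1, Hnrnpl, Mepce, Relb and Srsf1, and 1, Ell2, was higher, beside 8.46% and 2.68% of all measured genes. The median of the 86 was -0.23, against -0.19 over all measured genes. In Sirt1cKO 0 passed in either direction, with a median of -0.06 against -0.07. After median centring the AireKO counts were 1 lower and 4 higher, the last being Ell2, Parp2, Sp100 and Sp140, beside 4.36% and 5.62% of all measured genes.

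**Figure D4:**
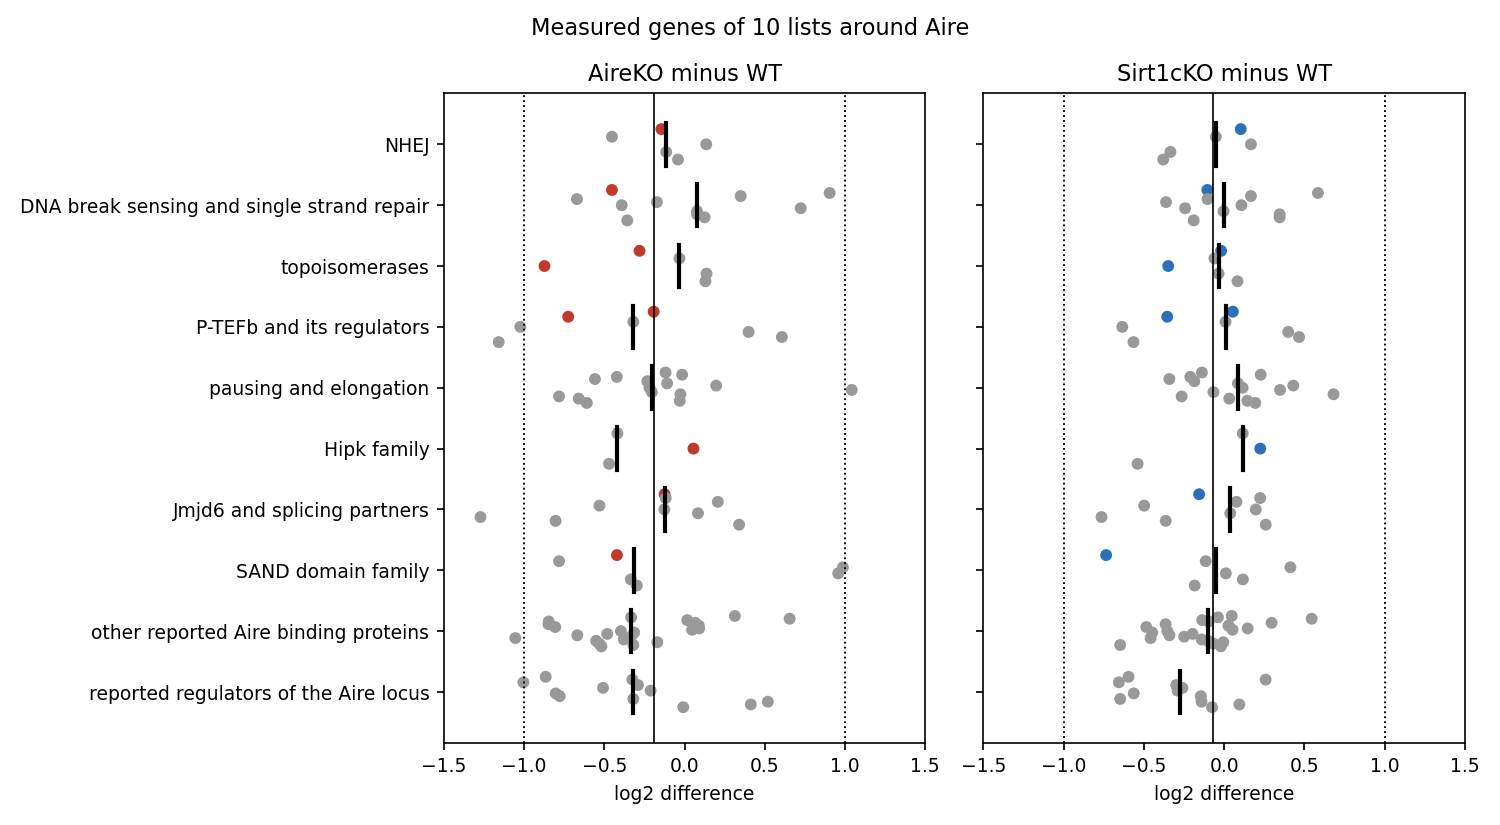
Log2 difference from WT (x axis) of the measured genes on 10 lists (y axis) in AireKO, left, and Sirt1cKO, right. Coloured points are the 9 members, thick bars the list medians, the thin line the median of all measured genes and dotted lines 2-fold. The 5 lower genes and 1 higher gene beyond the dotted lines are in AireKO, and none lies beyond them in Sirt1cKO.

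The order of libraries was compared over members. WT was highest for 6 of 9 and AireKO lowest for 6 of 9, while 49.2% of all measured genes were highest in WT and 52.8% lowest in AireKO. 8 members lay below WT in AireKO, beside 63.7% of measured genes, and 6 in Sirt1cKO, beside 58.4%. After median centring 5 lay below WT in each. With the median difference at 0, 6 lay below it in AireKO and 5 in Sirt1cKO. The order WT above Sirt1cKO above AireKO held for 4 members, Parp1, Top1, Top2a and Ccnt1, beside 38.2% of measured genes. Both comparisons share the WT library. Between the knockouts directly, Sirt1cKO was above AireKO for 7 members, most for Top2a at 0.53, and below it for Aire at -0.31 and Jmjd6 at -0.03. No member differed by 1.5-fold between the knockouts, beside 11.8% of measured genes higher and 4.55% lower in Sirt1cKO, and none by 2-fold, beside 2.72% and 1.04%. The 0.17 of Hipk2 came to -0.00 after median centring.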

How the data were processed

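Per the labels' protocols, biotinylated cRNA from the sorted cells was measured on Affymetrix Mouse Gene 1-ST arrays, 1 per genotype. The authors deposited linear intensity values per probe set. The submitters' processing notes name RMA, and its version and the step back to linear values are not stated there. Here log2 was taken with no further normalization. Of 34760 probe sets, 21640 had 1 symbol, 1321 several, which were not named, and 11799 none. Entrez identifiers matched a RefSeq table (GRCm38.p6) for 99.6%, including all 9 members.

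Libraries were grouped by title. A gene was called lower or higher at 2-fold, with no test. A fold against a value within background used the background percentile and is given as "at least". The members and lists were chosen with earlier results of these data known. All members are named, with genes from among the 6 of each list with the largest differences, though not always all 6. Both neighbours of Aire and the 5 likest profiles are also named. Tnfrsf11a, Map3k14, Krtap10-4 and the cell type marker genes were named beyond this rule after their values were seen. Sirt1, Hipk4, the sex-linked genes and H2-Ea also lie outside it. Alternatives were quantile normalization, loess (span 0.3), centring, other filters, probe-set rules and folds, and exchanged knockout labels. Setting the median difference to 0 was added after the data were examined. Code was tested on simulated data. Tools were statsmodels 0.14.6, pandas 2.3.3 and numpy 2.4.6 under Python 3.11.15. The number of arrays limits the precision.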

Additional observations from a re-analysis of the deposited data

How the results depend on the processing

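The counts of members past 2-fold were 0 in every comparison under every alternative, including 3-fold, except at 1.5-fold, where 2 were lower in AireKO and 1 in Sirt1cKO. With the knockout labels exchanged, the values of both comparisons with WT change places. The differences between knockouts then became 0.31 for Aire, -0.35 for Parp1, -0.53 for Top2a and -0.37 for Ccnt1. These were the 4 of 189 recomputed member differences that moved by over 1.5-fold. The 189 include values that the probe-set rules left unchanged. Over all measured genes, 1062 were lower and 336 higher in AireKO as reported, 548 and 706 after median centring, 666 and 564 with the median difference at 0, and 1098 and 638 with no filter. The cause was not tested. No paired analysis was possible because each genotype has 1 library. Background in AireKO limits values of dim genes.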
